A study of Mus musculus with 81 samples.

Results

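The genes described here are 35 genes of the DNA damage response and of DNA repair, taken by symbol from a table of 51826 genes. They fall into 15 genes of homologous recombination, 6 Fanconi anemia genes, 7 genes of end joining, 6 checkpoint kinases and mediators, and 1 mismatch repair gene. All 35 were found in the table and all 35 passed the filter on low counts. Their RNA was measured in mouse thymus and thymic lymphoma, with all biopsies of a tumour summed so that the mouse was the replicate.

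Every mouse was of a C57BL/6 x 129S4Sv/Jae strain and carried the same 3 alleles, written in the labels as Plk4(Col1a1), rtTA(Rosa) and centrin-GFP(Rosa). The controls were 8 normal thymuses of p53+/+ mice that received no doxycycline. The lymphomas formed 3 groups: untreated p53-/- (10 mice, 23 libraries), treated p53-/- (9 mice, 18 libraries) and treated p53+/- (12 mice, 31 libraries). Treatment was doxycycline for 2 weeks starting at 30 days of age. It turns on the Plk4 transgene through rtTA, a transactivator expressed from the Rosa locus. No allele restricted the system to T cells by its labelled name, and the tumours' age at collection was not used here. A single normal p53+/- thymus (mouse 819) entered no test. The study asked how aneuploidy affects tumour development.

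Cells repair a double-strand break in several ways. Homologous recombination copies the sister chromatid and therefore acts after replication, the Fanconi pathway unhooks crosslinks between strands at stalled forks, and end joining ligates the broken ends in any phase of the cycle. In the thymus, classical end joining also has a programmed task, because it seals the breaks that Rag1 and Rag2 make while T-cell receptor genes are assembled. The kinases Atm and Atr sense breaks and stalled forks and pass the signal on to Chek2 and Chek1.

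Counts summed per mouse ran from 5.01 M to 19.72 M in normal thymus and from 9.48 M to 98.59 M in the lymphomas (M stands for 1000000 counts). Two-sided tests came from edgeR's quasi-likelihood fit with labelled sex as a covariate, because 4 of 8 normal, 9 of 10 untreated, 4 of 9 treated p53-/- and 3 of 12 treated p53+/- mice were male. Levels are given as log2 CPM, where CPM is the count per 1000000 counts of the mouse after scaling, and differences as log2 fold changes with their standard error (SE). Genes are said to have risen or fallen only where the Benjamini-Hochberg adjusted p over all 17841 genes tested was under 0.05. The p-values measure the spread between these mice.

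Some libraries stood apart from their labels or groups. Untreated mouse 881, labelled a thymic lymphoma, had a summed level of 175 CPM over 10 T lineage markers, with Cd3e, a subunit of the T-cell receptor complex, at 0.82 log2 CPM. Its 5 B lineage markers summed to 2724 CPM. Normal mouse 387 had the lowest T lineage mean of the normal thymuses (6.55 log2 CPM, against a median of 8.97) and the highest adipocyte sum (9832 CPM, against a median of 1942). Without mice 387 and 881 the numbers of repair genes that rose were the same as with them in each comparison (28, 30 and 26), in an alternative chosen after the data were seen.

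Most of the repair genes were expressed more in the lymphomas than in normal thymus. In treated p53+/- lymphomas 28 of the 35 rose, 1 fell and 6 did not pass the test, where 25.6% of all genes tested rose and 25.3% fell. In treated p53-/- lymphomas 30 rose, 1 fell and 4 did not pass, beside 25.4% and 26.7% of all genes. In untreated p53-/- lymphomas 26 rose, 1 fell and 8 did not pass, beside 23.2% and 17.6% of all genes. Over all genes these splits depended on scaling and on normal mouse 387. Without treatment 4137 rose and 3133 fell, and without scaling factors 3107 rose and 3549 fell. In treated p53+/- lymphomas 4565 rose and 4511 fell, against 3782 and 4886 without scaling factors and 4974 and 3325 without mouse 387. In treated p53-/- lymphomas 4534 rose and 4755 fell, against 5017 and 3752 without that mouse. The counts of repair genes that rose were 27, 29 and 26 without scaling factors and 28, 30 and 26 without mouse 387 (treated p53+/-, treated p53-/-, untreated). The median log2 fold change of the 35 genes was 1.34, 1.22 and 1.13 in that order, and the median over all genes tested was -0.0014, -0.0447 and 0.0824. These 3 comparisons share the same 8 normal thymuses and are not independent of each other. In bulk tissue, fewer cells of a type and less RNA per cell cannot be told apart.

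Markers of some other cell types of the thymus moved in the same comparisons. All 6 adipocyte markers fell in each of them; their sum ran from 622 to 9832 CPM in normal thymus and from 35.2 to 187 CPM in the lymphomas. Thymic epithelial markers fell in 6 of 7 cases without treatment and in 7 of 7 in each treated group, with sums from 159 to 2464 CPM in normal thymus and from 7.95 to 319 CPM in the lymphomas. B lineage markers fell in 5 of 5 cases in both treated groups and in 0 of 5 without treatment. Their median sum was 88.3 CPM in normal thymus and 11.1, 12.5 and 15.2 CPM in untreated, treated p53-/- and treated p53+/- lymphomas. The highest untreated sum was the 2724 CPM of mouse 881, and untreated mouse 98 had a B lineage mean of 6.28 log2 CPM. T lineage markers fell in 3, 2 and 3 of 10 cases (untreated, treated p53-/- and treated p53+/-). In the same order, 0 of 6 macrophage markers rose each time and 0, 1 and 0 fell. Of 6 markers of stroma and endothelium 2, 1 and 1 rose and 1, 1 and 2 fell. None of these lists had a marker at 0 in every mouse of a group, and their part in the rises was not tested.

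**Figure D1:**
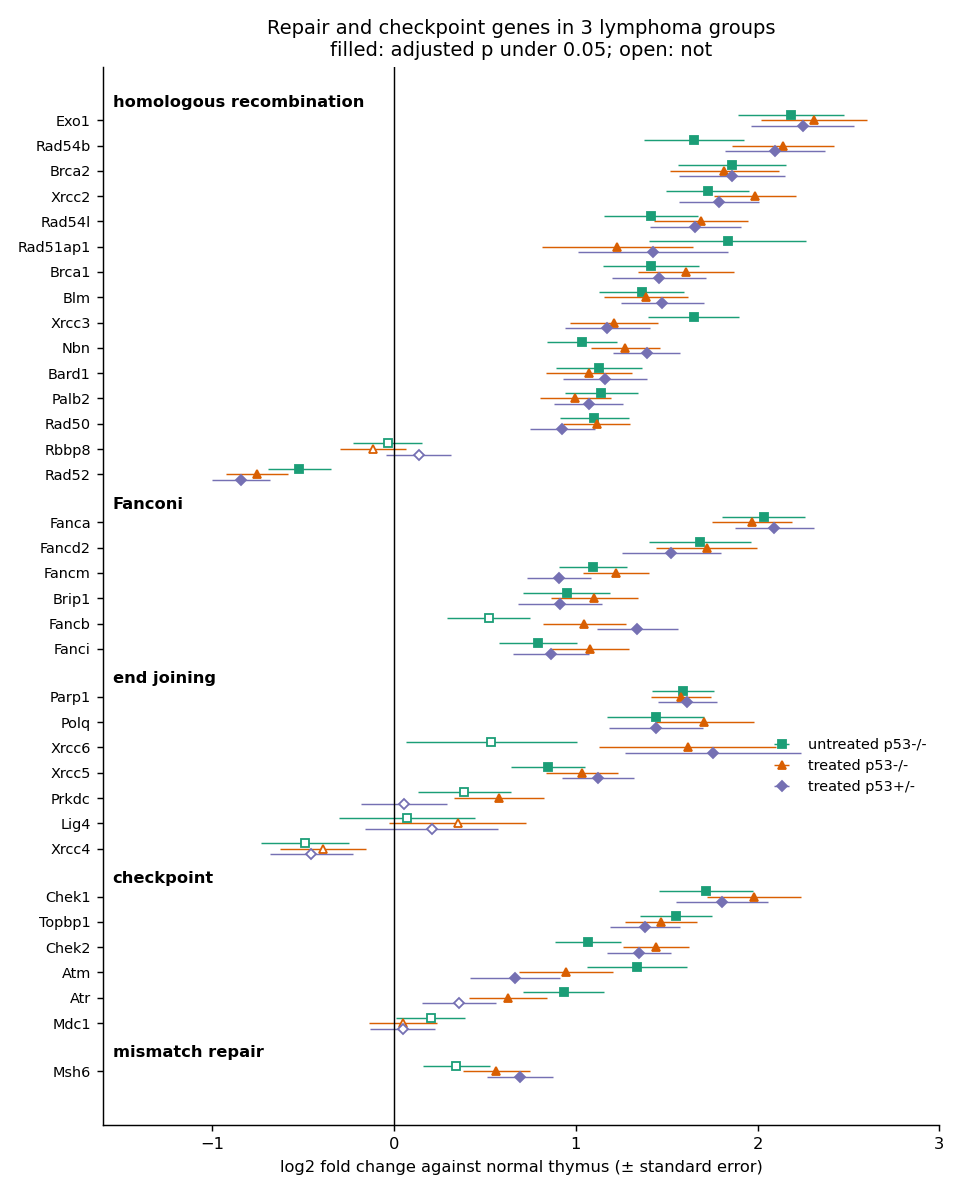
Log2 fold change of each of the 35 genes against normal thymus (x axis, with bars for ± 1 SE), grouped by pathway on the y axis, with filled symbols for an adjusted p under 0.05. Most symbols lie to the right of 0, Exo1 lies furthest right among the recombination genes, and Rad52 lies to the left of 0 in the 3 comparisons.

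The groups often did not overlap at all. Every treated p53+/- mouse lay above every normal thymus for 16 of the genes (9.77% of all genes tested), every treated p53-/- mouse for 25 (11.4%), and every untreated mouse for 15 (6.77%). For 0 of the 35 did every mouse of a lymphoma group lie below every normal thymus, which held for 4.83%, 7.94% and 3.79% of all genes in the same order.

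Of the homologous recombination genes, 13 of 15 rose and 1 fell in each of the 3 comparisons, with median log2 fold changes of 1.42 (treated p53+/-), 1.27 (treated p53-/-) and 1.41 (untreated). Exo1 (ENSMUSG00000039748, chromosome 1, 175880581 to 175913489, plus strand, GRCm38), the exonuclease that lengthens the resected end of a break, moved most. Its normal level had a lowest, median and highest value of 1.51, 3.74 and 4.31 log2 CPM. In the lymphomas these values were 5.04, 5.71 and 6.99 without treatment, 5.65, 5.95 and 6.63 in treated p53-/-, and 5.44, 5.81 and 6.42 in treated p53+/-. Every lymphoma was above every normal thymus, and the 3 lymphoma groups overlapped. The log2 fold changes were 2.18 ± 0.29, 2.31 ± 0.29 and 2.25 ± 0.28, or 4.54-, 4.97- and 4.75-fold (adjusted p = 2.83e-07, 5.92e-08 and 5.32e-08).

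Brca2, a mediator of recombination at resected DNA, had normal values of 2.85, 3.82 and 4.61. The lowest and highest lymphoma values were 4.93 and 6.47 without treatment, 4.51 and 6.55 in treated p53-/-, and 5.11 and 6.58 in treated p53+/-, so that only the treated p53-/- group reached into the normal range. Brca2 rose by 1.86 ± 0.30, 1.82 ± 0.30 and 1.86 ± 0.29 in these groups, about the same step each time. Its partners rose less: Brca1, a ubiquitin ligase of the break response, by 1.41, 1.61 and 1.46, Bard1, the obligate partner of Brca1, by 1.13, 1.07 and 1.16, and Palb2, the bridge between Brca1 and Brca2, by 1.14, 1.0 and 1.07.

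Genes of the strand exchange step also rose. Rad54b, a translocase of the Rad54 family, rose by 1.65 ± 0.28 without treatment, 2.14 ± 0.28 in treated p53-/- and 2.10 ± 0.27 in treated p53+/- tumours. Its relative Rad54l rose by 1.41, 1.69 and 1.66. Xrcc2, which acts in strand exchange, had normal values of 1.38, 2.88 and 3.39, and every lymphoma was above them, with a range from 3.91 to 5.63 in treated p53-/- mice. Its log2 fold changes were 1.72 ± 0.23, 1.99 ± 0.23 and 1.79 ± 0.22, and those of Xrcc3, which acts in the same step, were 1.65, 1.21 and 1.17. Rad54b shares 35.8% of its exon bases with Fsbp on the same strand and Rad54l 15.4% with Lrrc41 on the other, and reads of such overlaps could be split between the genes.

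Rad50 and Nbn of the break-binding complex and the resolving helicase Blm also rose. Rad50 rose by 1.1, 1.12 and 0.93 and Nbn by 1.03, 1.27 and 1.39 in untreated, treated p53-/- and treated p53+/- lymphomas; both are subunits of the Mre11 complex, which holds and trims broken ends. Blm, the Bloom helicase that unwinds recombination intermediates, rose by 1.36, 1.38 and 1.48. Rbbp8, which encodes the resection factor CtIP, did not pass the test in any comparison: its log2 differences were -0.04 ± 0.19, -0.12 ± 0.18 and 0.14 ± 0.18. Normal values of Rbbp8 (4.92, 5.31 and 5.73) lay within those of the lymphomas (4.67 to 6.25).

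Rad52 (ENSMUSG00000030166, chromosome 6, 119902698 to 119922828, plus strand) moved the other way. Rad52 anneals complementary single strands during repair. Its normal values were 3.62, 4.54 and 4.77, and those of the lymphomas were 3.25, 4.09 and 4.75 without treatment, 3.40, 3.92 and 4.13 in treated p53-/-, and 3.30, 3.73 and 4.37 in treated p53+/-. The groups overlapped, and normal mouse 387 was at 3.62 while the other normal thymuses were at 4.36 or above. Rad52 fell by 0.52 ± 0.17 (adjusted p = 0.0149), 0.76 ± 0.17 (adjusted p = 0.000406) and 0.84 ± 0.16 (adjusted p = 4.99e-05). The untreated call was lost under several settings: without untreated mice 120, 202 and 881 the difference was -0.40 (adjusted p = 0.0673), with every gene tested -0.51 (0.0521), with only the 2 groups compared -0.44 (0.12), in single-biopsy tumours -0.42 (0.121) and with proliferation as a covariate -0.69 (0.0749). Both treated calls held in each of these.

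The rest of chromosome 6 was lower in the lymphomas too. The median log2 ratio to normal thymus over its genes, after centring each mouse, was between -0.55 and -0.16 in the 31 lymphomas and between -0.07 and 0.06 in the normal thymuses. Leaving out Rad52, its mean was -0.31 without treatment, -0.41 in treated p53-/- and -0.39 in treated p53+/- tumours, beside log2 fold changes of Rad52 of -0.52, -0.76 and -0.84. Of the 15 chromosomes that carry repair genes of this list, 6 and 7 were the 2 on which every lymphoma lay below every normal thymus. Rad51ap1 and Fancd2 on chromosome 6 and Palb2, Blm and Fanci on chromosome 7 rose all the same. On chromosome 5, which carries Brca2, Xrcc2 and Chek2, all 31 lymphomas lay above every normal thymus (0.07 to 1.08). On chromosome 15, which carries Xrcc6, 29 did. Across the lymphomas Rad52 had r = 0.18 with the chromosome 6 measure (adjusted p = 0.499 by permutation). The part of the chromosomes in its fall and in the rises was not tested.

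**Figure D2:**
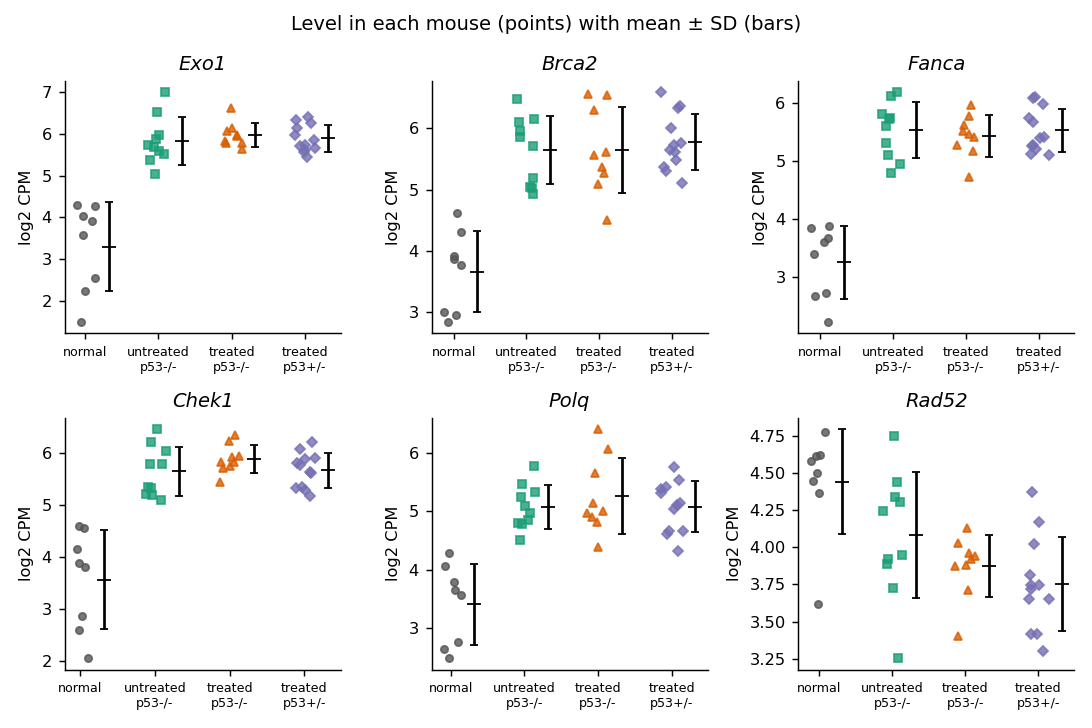
Log2 CPM of 6 genes (y axis) in every mouse (points), by group (x axis), with bars for the mean ± SD over mice. Every lymphoma lies above every normal thymus for Exo1, Fanca, Chek1 and Polq, 1 treated p53-/- lymphoma reaches the normal range of Brca2, and Rad52 lies lower in the lymphomas with overlap.

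The Fanconi genes rose in 6 of 6 cases in both treated groups and in 5 of 6 without treatment. Fanca (ENSMUSG00000032815, chromosome 8, 123268300 to 123318576, minus strand), a subunit of the core complex that marks crosslinked DNA, had normal values of 2.24, 3.51 and 3.88, while the lowest lymphoma of any group was at 4.72. It rose by 2.03 ± 0.23 without treatment, 1.97 ± 0.22 in treated p53-/- and 2.09 ± 0.22 in treated p53+/- tumours, which is 4.09-, 3.91- and 4.27-fold. Fancd2, the clamp that the core complex ubiquitinates, rose by 1.68 ± 0.28, 1.72 ± 0.28 and 1.53 ± 0.27. Fanci, its partner in the clamp, rose only by 0.79, 1.08 and 0.86.

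Fancm, the translocase that anchors the core complex at forks, rose by 1.1 ± 0.19, 1.22 ± 0.18 and 0.91 ± 0.18. Brip1, a helicase that binds Brca1, rose by 0.95, 1.1 and 0.91. Fancb, an X-linked core subunit, differed most by group: its medians were 2.66 in normal thymus, 3.27 without treatment, 3.59 in treated p53-/- and 4.05 in treated p53+/- tumours. It rose by 1.05 ± 0.23 and 1.34 ± 0.22 in the treated groups, and its difference without treatment was 0.52 ± 0.23 (adjusted p = 0.0643). That last value passed without normal mouse 624 (adjusted p = 0.0425) and without the sex covariate (adjusted p = 0.0403). Fanca shares 10.5% of its exon bases with Zfp276 and Fanci 15.9% with Polg, both on the opposite strand.

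Of the 7 end joining genes 3 rose without treatment, 5 in treated p53-/- and 4 in treated p53+/- tumours. Parp1 (ENSMUSG00000026496, chromosome 1, 180568924 to 180601254, plus strand), the poly(ADP-ribose) polymerase that binds nicks and breaks and serves alternative end joining, had normal values of 6.26, 6.79 and 6.94 and lymphoma values from 7.84 to 9.12. It rose by 1.59 ± 0.17, 1.58 ± 0.17 and 1.61 ± 0.16 in untreated, treated p53-/- and treated p53+/- lymphomas, 3.01-, 2.99- and 3.06-fold (adjusted p = 3.86e-09, 1.82e-09 and 5.39e-10). Polq, the polymerase theta that joins ends through short homologies, had normal values of 2.49, 3.62 and 4.29 and lymphoma values from 4.33 to 6.40. It rose by 1.44 ± 0.27, 1.71 ± 0.27 and 1.44 ± 0.26.

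Of the genes of classical end joining, Xrcc6 and Xrcc5 encode Ku70 and Ku80, the ring that slides onto a broken end. Xrcc5 rose by 0.85, 1.03 and 1.12. Xrcc6 rose by 1.61 ± 0.49 in treated p53-/- and 1.75 ± 0.48 in treated p53+/- tumours, and its difference without treatment was 0.53 ± 0.47 (adjusted p = 0.377). Its spread was wide, with values of 5.81, 8.55 and 9.14 in normal thymus, 6.25, 8.90 and 10.62 without treatment, 6.89, 10.22 and 11.01 in treated p53-/-, and 9.13, 10.16 and 11.35 in treated p53+/- mice.

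Lig4 and Xrcc4, which act in the ligation step of classical end joining, did not pass edgeR's test in any comparison. Lig4, the ligase that seals the ends, had normal values of 4.32, 6.23 and 6.46, and untreated, treated p53-/- and treated p53+/- values of 2.42, 6.27 and 7.03, of 5.94, 6.48 and 7.27, and of 5.42, 6.33 and 7.26. Its log2 differences were 0.07 ± 0.38, 0.35 ± 0.38 and 0.21 ± 0.37. Those of its scaffold Xrcc4 were -0.49 ± 0.24, -0.39 ± 0.24 and -0.46 ± 0.23 (adjusted p = 0.0999, 0.161 and 0.0923). Xrcc4 was called lower in all 3 by limma voom over all biopsies, with the mouse as a block (adjusted p = 0.0497, 0.0184 and 0.0122). Without scaling factors edgeR called it lower in untreated and treated p53+/- lymphomas (adjusted p = 0.0262 and 0.0239). Prkdc, the catalytic subunit of DNA-dependent protein kinase, differed by 0.39 ± 0.26 without treatment and 0.05 ± 0.24 in treated p53+/- lymphomas. It rose by 0.58 ± 0.25 in treated p53-/- lymphomas (adjusted p = 0.0483), a call that was lost when any 1 of the normal mice other than 387 was left out (adjusted p up to 0.0744).

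Among the checkpoint genes, Chek1 (ENSMUSG00000032113, chromosome 9, 36708482 to 36727065, minus strand), the effector kinase of Atr that restrains origin firing and entry into mitosis, rose most. Its normal values were 2.06, 3.85 and 4.60, below the 5.10 of the lowest lymphoma. The log2 fold changes were 1.72 ± 0.26, 1.98 ± 0.26 and 1.81 ± 0.25, or 3.29-, 3.95- and 3.50-fold. Topbp1, which activates Atr at stalled forks, rose by 1.55 ± 0.20, 1.47 ± 0.20 and 1.38 ± 0.19, and Chek2, the effector kinase of Atm, by 1.07 ± 0.18, 1.44 ± 0.18 and 1.35 ± 0.18.

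The upstream kinases were Atm and Atr. Atm had normal values of 4.21, 4.59 and 5.25, and values of 5.16, 5.87 and 7.53 without treatment, 4.86, 5.79 and 6.17 in treated p53-/-, and 4.34, 5.37 and 6.45 in treated p53+/- lymphomas. It rose by 1.33 ± 0.27, 0.95 ± 0.26 and 0.67 ± 0.25. The last of these calls did not hold without normal mouse 961 (adjusted p = 0.0516) or without scaling factors (0.58, adjusted p = 0.0598). Atr rose by 0.93 ± 0.22 and 0.63 ± 0.21 in the p53-/- groups and differed by 0.36 ± 0.21 in treated p53+/- lymphomas (adjusted p = 0.146), a difference that passed when untreated mice 120, 202 and 881 were left out of the fit (0.35, adjusted p = 0.0342). In that fit the untreated value of Atr was 0.51 in place of 0.93 and the treated p53-/- value 0.62 (adjusted p = 0.00933 and 0.000492). Mdc1, the scaffold that binds the phosphorylated histone at a break, differed by 0.20, 0.05 and 0.05 and did not pass in any comparison.

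Msh6, a subunit of the complex that recognises base mismatches, had normal values of 5.94, 7.30 and 7.58. It rose by 0.56 ± 0.19 in treated p53-/- and 0.69 ± 0.18 in treated p53+/- tumours, and its difference without treatment was 0.34 ± 0.18 (adjusted p = 0.136).

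Further genes of the same pathways were counted in the same fit, to be read beside the 23.2%, 25.4% and 25.6% of all genes that rose and the 17.6%, 26.7% and 25.3% that fell in untreated, treated p53-/- and treated p53+/- lymphomas. Examples were taken where the mean level reached a log2 CPM of 2. Of 28 other homologous recombination genes, 16 rose and 4 fell without treatment, 17 rose and 4 fell in treated p53-/-, and 16 rose and 3 fell in treated p53+/- lymphomas. In treated p53+/- lymphomas Rpa2, a subunit of the complex that coats single strands, rose by 2.11 and the resolvase subunit Eme1 by 1.69, while Mus81, its catalytic partner, fell by 1.19 and Uimc1, which encodes the ubiquitin-binding protein Rap80, by 0.70. The remaining fall there was that of Dmc1, the meiotic recombinase, by 3.08 from a low level (mean log2 CPM of 0.52 in normal thymus), named after its value was seen. Of 12 other Fanconi genes, 6, 6 and 7 rose in the same order and 0 fell, with Usp1, which removes ubiquitin from Fancd2, up by 1.87 and the ubiquitin ligase Rad18 up by 1.48 in treated p53+/- lymphomas.

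Of 17 other end joining genes tested, 4 rose and 4 fell without treatment, 5 rose and 4 fell in treated p53-/-, and 5 rose and 2 fell in treated p53+/- lymphomas. There Lig3, the ligase of alternative end joining, rose by 1.05 and Parp2 by 1.07, and Parp3, another relative of Parp1 with a part in classical end joining, fell by 2.28. Mismatch repair genes other than Msh6 rose in 11, 12 and 12 of 13 cases, and 0 fell. Rfc4 and Rfc3, subunits of the clamp loader that replication also uses, rose by 2.23 and 1.97 in treated p53+/- lymphomas. Of 21 other checkpoint genes 12, 13 and 14 rose and 1 fell each time, among them Clspn, the mediator between Atr and Chek1 (1.87 in treated p53+/-), and Tipin, which steadies stalled forks (1.83), while Rad9a, a subunit of the checkpoint clamp, fell by 0.87.

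Of 16 base excision repair genes 12, 11 and 12 rose and 2 fell in each comparison. In treated p53+/- lymphomas the uracil glycosylase Ung rose by 2.49 and the endonuclease Apex1 by 2.18, while the glycosylase Neil1 fell by 0.93 and Polb, the gap-filling polymerase, by 0.87. Of 20 nucleotide excision repair genes 8, 9 and 10 rose and 0, 1 and 1 fell; in treated p53+/- lymphomas Rad23b, a partner of Xpc, rose by 1.51, Gtf2h3, a subunit of TFIIH, rose by 1.41, and Xpc, which senses helix distortion, fell by 0.50.

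Between the 3 lymphoma groups none of the 35 genes passed edgeR's test, and neither did any of the 16387 genes tested (0.0%). DESeq2 and limma voom also called 0 of the 35. Over all genes DESeq2 called 5 higher and 7 lower in treated p53+/- against treated p53-/-, 0 and 3 in treated p53+/- against untreated, and 13 and 62 in treated against untreated p53-/- lymphomas. In the same order limma voom called 1 and 0, 1 and 0, and 31 and 8, so the balance of the last comparison differed between the tools. Without the sex covariate edgeR called 5 genes higher and 16 lower in treated p53+/- against untreated lymphomas, 0 of the 35 among them, and 0 in the other two comparisons. The comparison of treated p53+/- with treated p53-/- lymphomas had 1 member at an unadjusted p under 0.05 (5.28% of all genes), Prkdc, with a log2 difference of -0.52 ± 0.25 (p = 0.0487, adjusted p = 0.937). Fancm was next, with a difference of -0.32 ± 0.16 (p = 0.0514, adjusted p = 0.937).

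Treated p53+/- against untreated p53-/- lymphomas gave 4 members at that level (6.34% of all genes, 1039 genes, against 2349 without the sex covariate). They were Fancb at 0.73 ± 0.23 (p = 0.00308), Atr at -0.57 ± 0.25 (p = 0.031), Xrcc6 at 1.1 ± 0.50 (p = 0.0353) and Atm at -0.61 ± 0.29 (p = 0.0422), with adjusted p between 0.776 and 0.777. Without untreated mice 120, 202 and 881 the differences were 0.76 for Fancb, -0.16 for Atr, 0.75 for Xrcc6 and -0.38 for Atm (adjusted p from 0.897 to 0.922). This comparison differs in both p53 genotype and treatment, which cannot be told apart in it. Treated against untreated p53-/- lymphomas gave 1 member (11.7% of all genes), Xrcc6, at 1.01 ± 0.48 (p = 0.0418, adjusted p = 0.413), or 0.63 without those 3 mice (adjusted p = 0.637). Fancb and Rad54b followed, at 0.45 ± 0.23 (p = 0.0618) and 0.40 ± 0.21 (p = 0.0645).

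Proliferation markers moved with these rises. A list of 23 genes of replication and mitosis summed to between 758 and 4255 CPM in normal thymus and to between 4923 and 9638 CPM in the lymphomas, without overlap. Of the 23, 21 rose without treatment and 22 in each treated group. The normal thymuses themselves differed: mice 978, 387 and 961 had list means of 4.54, 4.93 and 5.50 log2 CPM, and the other 5 normal mice had means from 6.52 to 7.07. For 25 of the 35 repair genes (71.4%) these 3 mice were also the 3 lowest normal thymuses, which held for 9.11% of all 22453 genes outside the proliferation list. Exo1 was at 1.51, 2.24 and 2.55 in mice 978, 387 and 961 and between 3.57 and 4.31 in the other normal mice. Brca1 was at 3.0, 3.25 and 3.65 and otherwise between 4.55 and 5.43. Parp1 was not among the 25: mouse 387 was at 6.92, near the top of the normal range.

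With the list's mean as a covariate, fewer repair genes passed. In treated p53+/- lymphomas 3 were called higher (4.17% of all genes tested), namely Parp1 (1.31), Fanca (1.18) and Nbn (1.05). In treated p53-/- lymphomas 4 were called higher (4.15%), namely Parp1 (1.28), Fanca (1.06), Xrcc2 (1.02) and Chek2 (0.88). Without treatment 10 were called higher (5.85%): Atm (1.59), Parp1 (1.34), Brca2 (1.28), Fanca (1.27), Xrcc3 (1.15), Topbp1 (1.07), Atr (1.06), Exo1 (0.99), Xrcc2 (0.94) and Rad50 (0.89). Rad52 was called lower in treated p53+/- (-1.04) and treated p53-/- lymphomas (-0.95), where 3.49% and 3.77% of all genes were called lower, and 0 of the 35 were called lower without treatment (4.43% of all genes). The covariate did not overlap between normal thymus and lymphoma, so the part of proliferation and that of the tumour state cannot be told apart in this fit. Of the 67 calls of a rise that were lost, 3 had a log2 fold change at least as large with the covariate. Atm went from 0.67 to 0.99 in treated p53+/- (adjusted p = 0.168) and from 0.95 to 1.26 in treated p53-/- tumours (adjusted p = 0.0701). Atr went from 0.63 to 0.78 in treated p53-/- tumours (adjusted p = 0.189). The untreated call of a fall in Rad52 was also lost, at -0.52 without and -0.69 with the covariate (adjusted p = 0.0749).

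**Figure D3:**
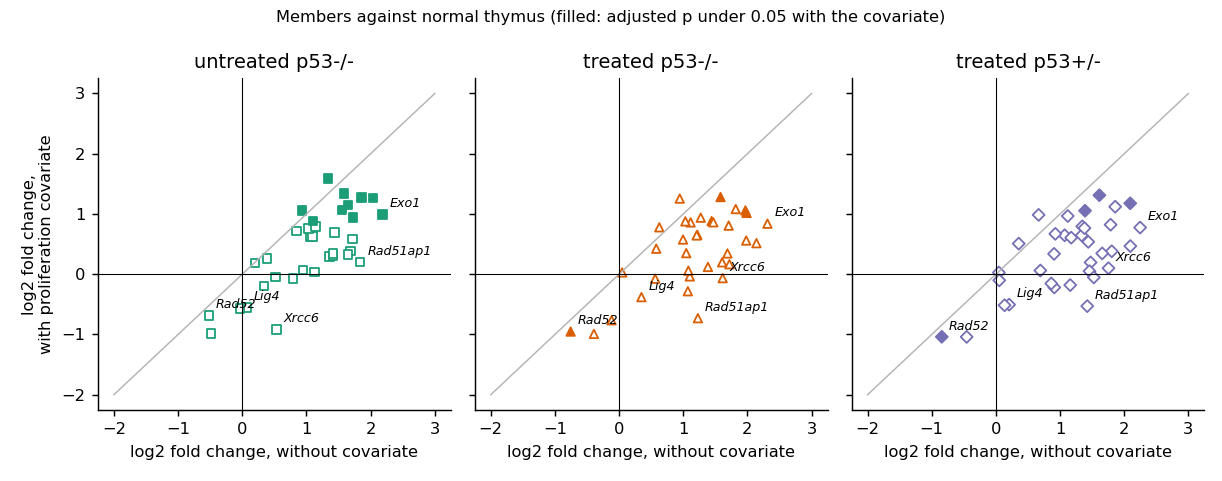
Log2 fold change against normal thymus without (x axis) and with (y axis) the mean of 23 proliferation genes as a covariate, 1 point per gene and 1 panel per lymphoma group; filled points passed with the covariate and the grey diagonal marks equal values. Most points fall below the diagonal, and Rad51ap1 lies below 0 on the y axis in both treated panels.

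Across the 31 lymphomas the repair genes were also set against the list mean. The correlation with it was above 0 for 27 of 35 (48.3% of all genes). By permutation test with adjustment over 22453 genes, it was positive with an adjusted p under 0.05 for 4 of 35 repair genes (5.18% of all genes), and by rank correlation for 6 (4.25%). Xrcc6 had r = 0.72 (permutation p = 3e-05, adjusted p = 0.00344) and rho = 0.69 (permutation p = 6e-05, adjusted p = 0.00566), and r = 0.71 without the 2 mice farthest from the median. Rad54b had r = 0.63 (adjusted p = 0.00931), Fanci r = 0.56 (adjusted p = 0.0234) and Nbn r = 0.52 (adjusted p = 0.0446), with rho of 0.59, 0.57 and 0.58. The other two by rank were Rad51ap1, with rho = 0.62 (adjusted p = 0.0161) and r = 0.38 (adjusted p = 0.177), and Fancd2, with rho = 0.52 (adjusted p = 0.0496) and r = 0.49 (adjusted p = 0.0623). Within the untreated, treated p53-/- and treated p53+/- groups r was 0.54, 0.78 and 0.65 for Xrcc6 and 0.59, 0.31 and 0.55 for Rad54b. Exo1 and Brca1 both had r = 0.28 over the 31 (adjusted p = 0.352 and 0.348). In the 18 tumours with a single biopsy, 0 of the 35 passed, and 0.575% of all genes did.

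Xrcc6 and Lig4 were lowest in the same untreated mice. Mice 120 and 202 had Lig4 at 2.42 and 2.67 log2 CPM, while the 28 lymphomas other than these and mouse 881 lay between 5.42 and 7.27. Their Xrcc6 was 6.25 in both, below the 6.89 to 11.35 of those 28. Cd3e was at 8.59 and 8.36 in them and their T lineage means were 6.71 and 6.04, but transcripts of receptor gene assembly were low: Rag1 was at 0.66 and -1.42 and Dntt, the polymerase that adds bases at the junctions, at 0.11 and -1.24. In the other 28 lymphomas Rag1 was at 4.75 or above and Dntt at 5.66 or above. Rag2 was at -2.24 in mouse 120 and -3.90 in mouse 202, but the other 28 reached down to -2.89, below mouse 120. Rag2 thus did not set both mice apart. Rag1, Rag2 and Dntt were looked at after the values of Lig4 were seen.

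Other end joining genes varied in these mice. Xrcc4 was at 2.83 in mouse 202, below the range of the 28 (2.93 to 4.66), and at 3.25 in mouse 120, within it. Xrcc5 was at 5.89 in mouse 120 and 6.32 in mouse 202, inside the range of the 28 (4.74 to 6.45). The 4 biopsies of mouse 202 had Lig4 between 2.32 and 3.06 and Xrcc6 between 6.19 and 6.45, so the low values held across the tumour. Mouse 881, with its B lineage markers, had Xrcc6 at 7.70 and Lig4 at 5.73, within the range of the 28, with Rag1 at 5.30 and Dntt at 0.23, so that Dntt was low there without low Lig4. Treated p53-/- mouse 663 had Xrcc6 at 6.89 with Lig4 at 6.80. Without mice 120, 202 and 881 the untreated difference of Xrcc6 was 0.93 in place of 0.53 and did not pass (adjusted p = 0.0745). The part of these markers in the result was not tested.

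**Figure D4:**
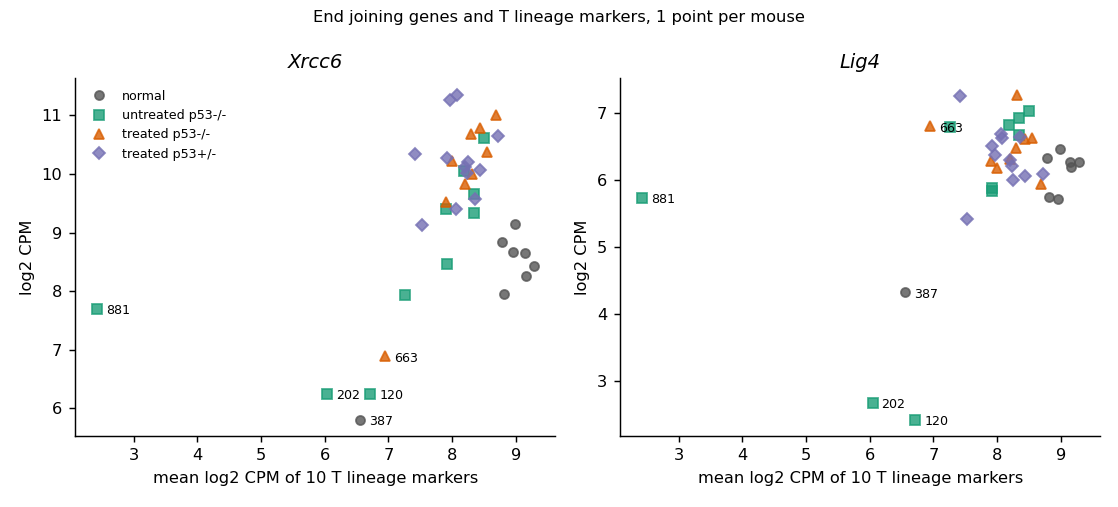
Log2 CPM of Xrcc6 (left) and Lig4 (right) against the mean log2 CPM of 10 T lineage markers, 1 point per mouse, coloured by group. Mice 120 and 202 lie low in both panels, mouse 387 is the lowest normal thymus in both, mouse 663 is low for Xrcc6 but not Lig4, and mouse 881 has the lowest T lineage mean.

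Xrcc6 overlaps an expressed neighbour. Xrcc6 (chromosome 15, 81987835 to 82040085, plus strand, GRCm38) has 344 exon bases (7.69% of its exons) in common with Desi1 on the opposite strand. The strandedness of the counting is not given in the sources used here, and without strand reads of the 2 genes cannot be told apart in those bases. Desi1 had a median of 7.99 log2 CPM in normal thymus and was low where Xrcc6 was low: at 5.77 in mouse 120, 5.58 in mouse 202, 7.57 in mouse 881, 7.55 in mouse 663 and 6.01 in normal mouse 387.

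Rad51ap1, which helps to form joints with the intact duplex, stood out in 1 tumour. It rose by 1.83 ± 0.43 without treatment, 1.23 ± 0.41 in treated p53-/- and 1.42 ± 0.41 in treated p53+/- tumours. Mouse 120 was at 8.20 log2 CPM, where the median of the untreated group was 5.38 and the other 30 lymphomas lay between 4.24 and 6.36. Without mice 120, 202 and 881 the untreated log2 fold change was 1.08 (adjusted p = 0.0054). The untreated call was lost with only the 2 groups compared (1.64, adjusted p = 0.0509). The treated p53-/- call was lost in single-biopsy tumours (1.07, adjusted p = 0.0773).

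The neighbours of Rad51ap1 on chromosome 6 were high in the same mouse. Of 15 protein-coding genes with a level that overlap the 1000 kb on either side of it, 7, with Rad51ap1 among them, were higher in mouse 120 than in all other 30 lymphomas. They lie between Kcna1 and Ccnd2 (126640397 to 127152193, GRCm38, 511.8 kb), a stretch whose ends were set by these genes and which holds 9 of the 15. Ccnd2, the cyclin D2 gene that drives entry into S phase, was at 12.75 in mouse 120, while the others had a median of 3.63 and a highest value of 9.25. Ndufa9 was 2.82 above the median of the others, D6Wsu163e 2.44 and Tigar 3.51, next to 2.81 for Rad51ap1 itself. Kcna1 and Kcna6 were at 1.38 and 2.30 in mouse 120 and at most at -1.61 and -1.67 in the others, where few or no reads were counted, so that the size of their differences is set by the prior count. Beyond this stretch Parp11, 523.8 kb from Rad51ap1, was 1.03 below the median and below all of the other 30. DNA copy number was not analysed here.

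**Figure D5:**
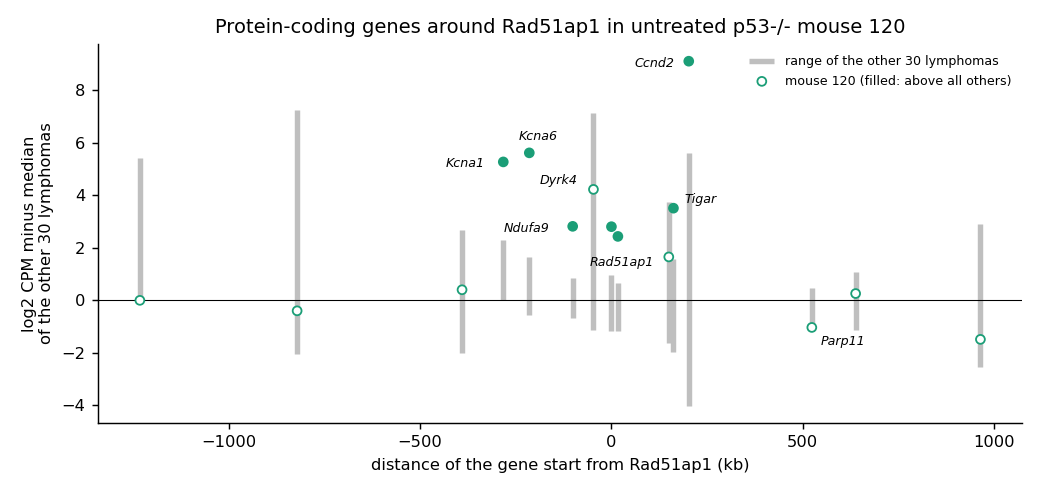
Log2 CPM in untreated mouse 120 minus the median of the other 30 lymphomas (y axis, points) for protein-coding genes by distance of their start from Rad51ap1 in kb (x axis), with grey bars for the range of the other 30. The points lie above the grey bars for 7 of 15 genes, all from Kcna1 to Ccnd2, with Ccnd2 at 9.11 (the heights of Kcna1 and Kcna6 depend on the prior count), and Parp11, the next gene beyond it, lies at -1.03, below its bar.

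Many repair genes followed the rest of their own chromosome from tumour to tumour. The measure was the median log2 ratio to normal thymus over the other genes of the chromosome, which is expression and not copy number. Over 31 lymphomas r was above 0 for 34 of the 35 (80.8% of all genes), and 20 correlated positively with it at an adjusted p under 0.05 by permutation (31.3% of 15385 genes), with a median r of 0.50, beside 0.28 over all genes. Rad54b on chromosome 4 had r = 0.75 and rho = 0.65 (adjusted p = 0.000351 and 0.00171), Rad50 and Brip1 on chromosome 11 had r = 0.73 and 0.72, and Fancb on X had r = 0.69. The sets of mice that share a chromosome's measure are the same for all genes on it, so these values are not independent.

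Atm, Atr, Chek1 and Topbp1 all lie on chromosome 9, whose measure was highest in untreated mouse 202 (0.52). There Atm was at 7.53 and Atr at 7.17, each the highest of the 31 lymphomas. The correlation of Atm was 0.56, and 0.30 without the 2 mice farthest from the median, so it rests in part on those mice. That of Chek1 was 0.57 and 0.35, and that of Atr 0.68 and 0.41. For Rad50 (0.68) and Brip1 (0.74) it stayed high without them. Some members showed next to no such relation, with r = 0.04 for Rad51ap1, 0.03 for Fancd2 and -0.06 for Fanci.

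Levels were more alike within a tumour than between tumours. Over 13 tumours with 54 biopsies, the SD between tumours was larger than the SD within for 35 of 35 genes, with medians of 0.39 and 0.23 log2 CPM and a median ratio of 1.65. No share over all genes is given beside this count, so it is not shown to be a trait of these 35 genes. The ratio was largest for Xrcc6 (3.85) and Lig4 (3.17) and smallest for Chek2 (1.08), Nbn (1.08) and Polq (1.11). The widest range within a tumour was that of Mdc1 in mouse 884, from 4.56 to 6.41 log2 CPM.

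Among the lymphomas the 35 genes did not move as 1 block. Over the 595 pairs of genes, r over 31 lymphomas had a median of 0.16 and was positive in 430, as a description without a test. Rad54l with Rad54b (0.71), Rad54b with Exo1 (0.70) and Brca1 with Brip1 (0.70) were the closest pairs. Rad54l with Xrcc4 (-0.61), Rad50 with Fancb (-0.56) and Atr with Lig4 (-0.55) were the most opposed. The median r was 0.27 among checkpoint genes, 0.16 among recombination genes, 0.16 among Fanconi genes and 0.03 among end joining genes. The checkpoint genes Atm, Atr, Chek1 and Topbp1 share chromosome 9. No value over pairs of all genes is given beside these.

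Compared per kilobase of exon, the mean level of Xrcc6 was highest of the 35 in every group, at 77.9 ± 34.0 CPM per kb (SD, n = 8) in normal thymus, 128 ± 108 (n = 10) in untreated, 267 ± 131 (n = 9) in treated p53-/- and 290 ± 144 (n = 12) in treated p53+/- tumours. Its Ku partner Xrcc5 was at 10.1 ± 1.89 in normal thymus and 24.1 ± 5.92 in treated p53+/- lymphomas. Msh6 (32.8 ± 9.51) and Parp1 (19.9 ± 3.45) came next in normal thymus and Parp1 (70.3 ± 16.8) and Msh6 (61.3 ± 14.9) in treated p53+/- lymphomas. Rad52 went from rank 12 in normal thymus to 32, 33 and 33 in untreated, treated p53-/- and treated p53+/- lymphomas, Xrcc4 from 13 to 33, 32 and 30, and Exo1 from 28 to 16, 17 and 18.

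In the p53+/- normal thymus of mouse 819, 32 of the 35 genes lay within the range of the 8 normal p53+/+ thymuses, 3 lay above it and 0 below, where 7.76% of all genes tested lay above and 8.74% below. Mdc1 (6.49), Xrcc5 (5.02) and Prkdc (5.24) lay above its upper ends of 6.34, 4.95 and 5.14 log2 CPM.

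Genes that rise with replication often carry sites for E2F factors, the transcription factors that Rb restrains, so the start regions were searched. RefSeq windows on GRCm38.p6, from 250 bases before to 50 after the start, were found for 27 of the 35 genes. Exo1, Rad54b, Xrcc2, Fancd2, Nbn, Rad50, Prkdc and Rbbp8 had none and were not searched. The letters TTTGGCGC, TTTCGCGC or GGCGGGAA occurred on either strand in 8 of 27 (29.6%), against 3.39% of 27025 genes with a window. Those 27025 were taken whether or not they were expressed here, while all of the 35 were. GGCGGGAA made up most of them, with 7 of 27 (25.9%, against 2.52% of all genes), and TTTCGCGC gave 1. The 8 genes were Chek1, Topbp1, Mdc1, Rad51ap1, Fancb, Fancm, Polq and Msh6, which includes Mdc1, a gene that did not pass in any comparison. The letters TTTGAA, the core of the CHR element of late cell cycle genes, were found in 2 of 27 (7.4%, against 20.2%), and CCAAT in 16 (59.3%, against 41.1%). A match of letters is a description and not a binding site.

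The windows of Chek1 and Polq, which rose, of Mdc1, which did not pass the test, and of Rad52, which fell, are shown for comparison, with the E2F letters in capitals (on the opposite strand GGCGGGAA reads TTCCCGCC), followed by Topbp1 with its TTTCGCGC on the opposite strand (GCGCGAAA). They lie at chr9:36726609-36726908 on the minus strand, chr16:37011536-37011835, chr17:35841248-35841547, chr6:119902448-119902747 and chr9:103305077-103305376, the last 4 on the plus strand.
Chek1: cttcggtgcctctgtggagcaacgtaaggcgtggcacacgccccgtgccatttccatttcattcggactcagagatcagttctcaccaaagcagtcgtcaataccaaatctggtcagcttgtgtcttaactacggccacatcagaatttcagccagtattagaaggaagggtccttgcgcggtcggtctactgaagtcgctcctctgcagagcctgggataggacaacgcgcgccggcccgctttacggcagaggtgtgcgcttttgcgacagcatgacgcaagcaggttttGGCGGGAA
Polq: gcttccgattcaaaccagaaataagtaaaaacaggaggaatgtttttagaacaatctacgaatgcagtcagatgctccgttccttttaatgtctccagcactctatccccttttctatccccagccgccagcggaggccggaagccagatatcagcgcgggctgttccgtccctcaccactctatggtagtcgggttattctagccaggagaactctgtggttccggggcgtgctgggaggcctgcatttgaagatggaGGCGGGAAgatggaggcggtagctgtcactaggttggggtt
Mdc1: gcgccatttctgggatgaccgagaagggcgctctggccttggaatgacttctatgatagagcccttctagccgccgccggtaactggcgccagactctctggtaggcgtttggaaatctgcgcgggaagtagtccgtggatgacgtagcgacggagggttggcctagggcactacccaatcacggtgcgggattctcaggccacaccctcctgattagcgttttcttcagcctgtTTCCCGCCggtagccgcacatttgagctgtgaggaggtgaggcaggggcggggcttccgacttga
Rad52: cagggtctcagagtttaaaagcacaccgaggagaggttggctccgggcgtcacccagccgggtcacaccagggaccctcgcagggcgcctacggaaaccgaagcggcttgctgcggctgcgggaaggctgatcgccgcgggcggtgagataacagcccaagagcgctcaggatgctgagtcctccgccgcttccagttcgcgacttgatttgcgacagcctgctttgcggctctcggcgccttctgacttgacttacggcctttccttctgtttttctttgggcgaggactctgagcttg
Topbp1: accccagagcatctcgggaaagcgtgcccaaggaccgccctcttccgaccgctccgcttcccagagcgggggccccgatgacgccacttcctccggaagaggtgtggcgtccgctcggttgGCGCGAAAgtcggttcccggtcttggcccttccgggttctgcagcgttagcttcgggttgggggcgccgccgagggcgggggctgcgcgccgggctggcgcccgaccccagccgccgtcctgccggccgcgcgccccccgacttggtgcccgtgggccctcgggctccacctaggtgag
Chek1 and Polq each hold GGCGGGAA after the start annotated by RefSeq, Mdc1 holds it on the opposite strand shortly before its start, and Rad52 holds none of the letters searched for E2F, TTTGAA or CCAAT in this window.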

How the data were processed

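RNA sequencing counts of 81 libraries were used. The authors deposited RSEM expected counts per gene, not scaled between libraries; the submitters' processing notes name CASAVA 1.8, fastp, STAR 2.7.2b, RSEM 1.1.17 and build mm10. Strandedness and the annotation the authors counted on are not given in the sources used here. Gene coordinates came from GENCODE M21 (GRCm38), which matched 51633 of 51826 IDs (99.63%).

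Biopsies were summed per mouse and rounded to whole numbers. edgeR 4.0.16 in R 4.3.3 (TMM, filterByExpr, robust quasi-likelihood, labelled sex as covariate) compared each lymphoma group with the 8 normal thymuses in 1 fit of 17841 genes, and the lymphoma groups in a second fit of 16387. Adjusted p-values are Benjamini-Hochberg values over all genes tested, with a threshold of 0.05. DESeq2 1.42.0 on the summed counts and limma 3.58.1 (voom) over all biopsies, with the mouse as a block, were alternatives. The code was tested on simulated data. Levels are log2 CPM (TMM factors, prior count 2). Correlations used 100000 permutations and were adjusted over all genes rather than over the 35 as first planned. Values per group were given by rule for the members with the largest mean change in each pathway (5 of recombination, 3 of each other), the one nearest 0, and the 3 of lowest p between lymphomas; every member is named, and others were chosen after their values were seen. The members and lists were chosen with earlier results of these data known. Counts carry no molecular identifiers, and Paxx was not analysed here. Some genes of the named lists are not reported here.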

Additional observations from a re-analysis of the deposited data

Results flagged for a closer look

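In 105 sets of values (35 genes in 3 groups of 8 to 10 mice) the highest or lowest mouse lay far outside its group, by Dixon's criterion, in 11. Chance alone gives about 1 in 20 such sets.

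6 of the 11 were the lowest value of the normal thymuses, and all 6 belonged to mouse 387: Rad52 (3.62 log2 CPM), Fanci (2.54), Xrcc5 (4.08), Xrcc6 (5.81), Lig4 (4.32) and Msh6 (5.94). The same mouse had the lowest T lineage mean and the highest adipocyte and B lineage levels of the normal thymuses. The genes within 1000 kb of Xrcc6 lay a median of 0.04 below the other normal mice there, against 2.84 for Xrcc6 itself.

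Among untreated lymphomas Atm was high in mouse 202 (7.53), 1.68 above the median of the others, while its 10 neighbours had a median difference of 0.22. Rad51ap1 was high in mouse 120 (8.20), and Brca1 in mouse 637 (6.91). For Rad51ap1 the 8 neighbours were raised by a median of 2.68 and the gene itself by 2.84. Among treated p53-/- lymphomas Topbp1 was high in mouse 659 (8.98), with its 19 neighbours at a median of -0.43, and Xrcc6 was low in mouse 663 (6.89), with its 34 neighbours at -0.52. The cause of these single values was not tested.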

How the results depend on the processing

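No paired analysis was possible because no mouse was in more than 1 group. The counts of genes that rose kept within 1.5 times their main value under every alternative but one: with the proliferation covariate they were 3 (treated p53+/-), 4 (treated p53-/-) and 10 (untreated). They ranged from 27 to 28, 29 to 30 and 26 to 27 without each normal mouse in turn, and were 28, 30 and 26 with DESeq2 (4748, 4773 and 4237 of all 17841 genes) and 22, 25 and 22 for log2 fold changes of at least 1 (14.3%, 14.8% and 12.5% of all genes). The count of genes that fell was 0 in the 3 comparisons at a log2 fold change of at least 1. It was 2 in the 3 comparisons with limma voom over all biopsies, which changed both the tool and the unit. It was also 2 without scaling factors in treated p53+/- and in untreated lymphomas, Xrcc4 being added each time. In untreated lymphomas it was 0 with every gene tested, with only the 2 groups compared, with the proliferation covariate, in single-biopsy tumours and without mice 120, 202 and 881 (an alternative chosen after the data were seen). Under the proliferation covariate 11 log2 fold changes of genes that had risen turned negative, besides others that had not passed the test: Bard1 -0.18, Brip1 -0.22, Fancd2 -0.052, Fanci -0.15 and Rad51ap1 -0.53 in treated p53+/-, Bard1 -0.28, Brip1 -0.036, Msh6 -0.074, Rad51ap1 -0.73 and Xrcc6 -0.065 in treated p53-/-, and Fanci -0.0695 in untreated lymphomas. The count of genes tied to proliferation across lymphomas was 0 in place of 4 in single-biopsy tumours, which leave 18 mice, and the share of all genes was 0.575% in place of 5.18%. Between lymphoma groups 0 of the 35 genes were called under every alternative run. Without scaling factors the median over all genes moved from -0.0014 to -0.1168 in treated p53+/- and from 0.0824 to -0.0476 in untreated lymphomas. The cause of these changes was not tested.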
